A study of Mus musculus with 7 samples.

Results

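Collagen fibres gain strength when their lysine residues are hydroxylated and then joined into crosslinks. The genes described here encode the enzymes of both steps: the 5 lysyl oxidases Lox, Loxl1, Loxl2, Loxl3 and Loxl4, and the 3 lysyl hydroxylases Plod1, Plod2 and Plod3. They were chosen by gene symbol, from knowledge of the pathway and with earlier results of these data known. They are 8 of 44818 features in the deposited tables, and all 8 were among the 16028 features that passed a filter on low counts.

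RNA was sequenced from 7 libraries of hindlimb tendon of mice of C57BL/6 background, in a study of heterotopic ossification and the kinase TAK1. The tenotomy samples (n = 2) came from the left leg of mice given a burn and an Achilles tenotomy, taken 3 weeks after injury between the gastrocnemius insertion and the heel bone. The burn, over 30% of the body surface, came from 18 s of contact with a block heated to 60 °C. The contralateral group (n = 3) was tendon of the right leg, which was not cut, of mice given the same burn and tenotomy, so this group also carries any effect of the burn on the whole animal. The uninjured group (n = 2) was tendon of wild-type mice with neither burn nor tenotomy. Age and sex are not given in the sources used here, and no label says whether a tenotomy and a contralateral library came from the same mouse, or whether tissue of several mice was pooled. P-values therefore measure the spread between these libraries.

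Lysyl hydroxylases act inside the cell. They add hydroxyl groups to lysines of newly made procollagen chains, and some of these hydroxylysines then carry sugars. Lysyl oxidases are copper-dependent enzymes that act outside the cell, where they convert lysine and hydroxylysine in collagen, and lysine in elastin, to aldehydes that condense into crosslinks. Plod2 is known for hydroxylating the telopeptides at the ends of collagen chains, which steers crosslinks toward the stable hydroxylysine-derived type found in bone and in scars. In tendon, crosslinking sets how well the tissue bears load.

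Plod2 is made in 2 coding splice forms, which differ by an exon that is of particular interest because the form that carries it is the one known for telopeptide hydroxylation. Exon 14 of the 20 exons of the long form (chr9:92601985-92602047, GRCm38, plus strand, GENCODE M21) has 63 bases, or 21 codons, and lies in the coding sequence. The short form has 19 exons. The junctions are shown with 15 bases of the exon on each side in lower case and the alternative exon in capitals.
Plod2 long form: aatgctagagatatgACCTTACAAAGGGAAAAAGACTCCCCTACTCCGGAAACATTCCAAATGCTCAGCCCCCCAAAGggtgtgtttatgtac
Plod2 short form: aatgctagagatatgggtgtgtttatgtac

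Promoter sequences were found in the RefSeq table (GRCm38.p6) for 3 of the 8 genes. These 3 are shown because the table holds them; they include genes that rose at the tenotomy site (Plod1, Plod3) and the one that did not pass the test (Loxl4). Each run is the 250 bases before the transcription start, 5′ to 3′ on the gene's strand, with capitals at matches on either strand to GGGCGG, the GC box (CCGCCC on the other strand), or ACGTG, the core of the hypoxia response element (CACGT on the other strand). The motifs do not overlap one another in these runs.
Plod1 (chr4:147936777-147937026, minus strand): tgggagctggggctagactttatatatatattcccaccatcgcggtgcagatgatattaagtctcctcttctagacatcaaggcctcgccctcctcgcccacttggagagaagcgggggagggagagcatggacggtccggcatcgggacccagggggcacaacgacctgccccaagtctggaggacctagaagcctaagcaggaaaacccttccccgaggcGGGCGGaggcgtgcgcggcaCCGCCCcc
Plod3 (chr5:136986769-136987018, plus strand): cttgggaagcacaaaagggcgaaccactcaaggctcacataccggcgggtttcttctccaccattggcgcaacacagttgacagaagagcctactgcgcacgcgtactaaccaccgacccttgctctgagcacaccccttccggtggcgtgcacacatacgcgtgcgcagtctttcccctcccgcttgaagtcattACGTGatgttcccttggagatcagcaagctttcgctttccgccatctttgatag
Loxl4 (chr19:42612807-42613056, minus strand): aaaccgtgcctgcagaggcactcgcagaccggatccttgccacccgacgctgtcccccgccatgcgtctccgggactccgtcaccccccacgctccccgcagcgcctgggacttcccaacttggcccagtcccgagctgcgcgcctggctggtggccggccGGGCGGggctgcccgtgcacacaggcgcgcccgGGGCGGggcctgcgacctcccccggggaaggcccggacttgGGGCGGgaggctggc

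The GC box matched 2 times in Plod1, 0 times in Plod3 and 3 times in Loxl4. Among the promoters of 27025 genes in the table, 32.9% held at least 1 such match in the same window. The ACGTG form of the hypoxia response core matched 1 time in Plod3 and 0 times in Plod1 and Loxl4, against 16.6% of all promoters. These matches describe the letters of the windows, and the data contain no measure of factor binding.

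The libraries held 25927171 to 36725106 estimated counts, of which 76.4% to 81.4% fell on 5 features. The remaining features shared 4934057 to 8375626 counts per library. Over the log2 CPM of all genes tested (CPM being counts relative to library size, with TMM scaling between libraries), the uninjured libraries lay 114.0 apart, a Euclidean distance larger than that of any other pair sharing a label. The tenotomy libraries were 59.6 and 61.1 away from the library labelled uninjured replicate 1, and uninjured replicate 2 lay 64.5 to 67.4 from the contralateral libraries. Whether both libraries of this group carry the right label cannot be settled from the files, and every uninjured value below is that of a library so labelled. The edgeR counts of called genes that rest on this group are therefore given with and without each of its libraries. All 7 tendon markers passed the filter, and in tenotomy against contralateral tendon 3 rose (Scx, Tnmd, Kera), 1 fell (Chad, by 3.18 on the log2 scale, edgeR adjusted p = 0.0192) and 3 did not pass (Thbs4, Mkx, Fmod). Chondroadherin (Chad) was at 33.5 to 74.2 CPM in contralateral, 5.63 and 5.97 in tenotomy, and 11.0 and 59.6 in uninjured libraries. Tenomodulin (Tnmd) was at 5.41 to 9.07 CPM in contralateral, 28.5 and 27.3 in tenotomy, and 25.3 and 11.8 in uninjured libraries. The summed CPM of 12 skeletal muscle markers was 8062 to 10390 in contralateral libraries, 840.6 and 835.5 in tenotomy libraries, and 1047 and 7680 in uninjured replicates 1 and 2, so muscle RNA was part of every piece. In such bulk tissue, a change in the number of cells of a type and a change in RNA per cell cannot be told apart.

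The first comparison, tenotomy against contralateral, asks how the injured tendon differed from the tendon of the opposite limb. Of the 8 genes, 7 rose at the tenotomy site and 0 fell, with 4 of the 5 lysyl oxidases and all 3 lysyl hydroxylases past an adjusted p-value of 0.05 in edgeR's quasi-likelihood test. Across all genes tested, 13.6% were called higher and 15.4% lower. The median log2 fold change of the 8 genes was 1.59, beside -0.0012 over all genes. Plod2 had the highest fold change and Loxl4 was the gene that did not pass.

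Lox encodes the founding lysyl oxidase, which crosslinks both collagen and elastin (ENSMUSG00000024529.14; chromosome 18, 52516067 to 52529867, minus strand, GRCm38). It stood at 22.9, 19.4 and 14.4 CPM in the contralateral libraries, at 66.1 and 65.8 in the tenotomy libraries, and at 56.5 and 35.9 in the uninjured libraries. The tenotomy libraries were the highest and the contralateral libraries the lowest, with no overlap between any of the groups. Lox rose over contralateral tendon by a log2 fold change of 1.80 (with SE 0.26, edgeR adjusted p = 0.0167), a 3.49-fold difference.

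Loxl2 encodes a lysyl oxidase-like enzyme best known for crosslinking collagen IV in basement membranes (ENSMUSG00000034205.16; chromosome 14, 69609068 to 69695834, plus strand). Its levels were 10.6, 11.9 and 8.94 CPM in contralateral, 38.4 and 37.9 in tenotomy, and 29.6 and 18.2 in uninjured libraries. The order of the groups was that seen for Lox, again without overlap. The log2 rise over contralateral tendon was 1.86 (SE 0.23, edgeR adjusted p = 0.0167).

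Loxl1 encodes the enzyme known for elastic fibre maintenance (ENSMUSG00000032334.10; chromosome 9, 58287738 to 58313186, minus strand). It was measured at 2.62, 3.53 and 3.74 CPM in contralateral and at 13.8 and 14.9 in tenotomy libraries. The uninjured libraries split, at 13.0 in replicate 1, near the tenotomy level, and 3.85 in replicate 2, just above the contralateral range. Loxl1 rose by 2.11 at the tenotomy site (SE 0.43, edgeR adjusted p = 0.0167).

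Loxl3 encodes a lysyl oxidase-like enzyme needed for craniofacial and muscle attachment development (ENSMUSG00000000693.10; chromosome 6, 83034173 to 83052562, plus strand). Its contralateral levels were 2.74, 1.99 and 1.67 CPM, its tenotomy levels 5.63 and 5.40, and its uninjured levels 5.28 and 2.03. Replicate 1 of the uninjured group again sat beside the tenotomy libraries, and replicate 2 inside the contralateral range. The rise of 1.38 (SE 0.37, edgeR adjusted p = 0.0298) did not pass when length-scaled TPM replaced the estimated counts (log2 fold change 1.03, edgeR adjusted p = 0.197). The gene overlaps Htra2 on the opposite strand, and whether counting used strand is not given in the sources used here.

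Loxl4 encodes a further lysyl oxidase-like enzyme (ENSMUSG00000025185.14; chromosome 19, 42593982 to 42612813, minus strand). It was the lowest of the 8 genes, with 18 to 50 estimated counts per library. It stood at 1.16, 0.768 and 1.33 CPM in contralateral, 1.09 and 1.30 in tenotomy, and 0.647 and 1.72 in uninjured libraries. The groups overlapped fully, and the difference of 0.14 (log2, SE 0.41, edgeR adjusted p = 0.829) was within the spread between libraries. The lowest rise called among the 8 genes relative to its SE was that of Loxl3, at 1.38 with an SE of 0.37.

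**Figure D1:**
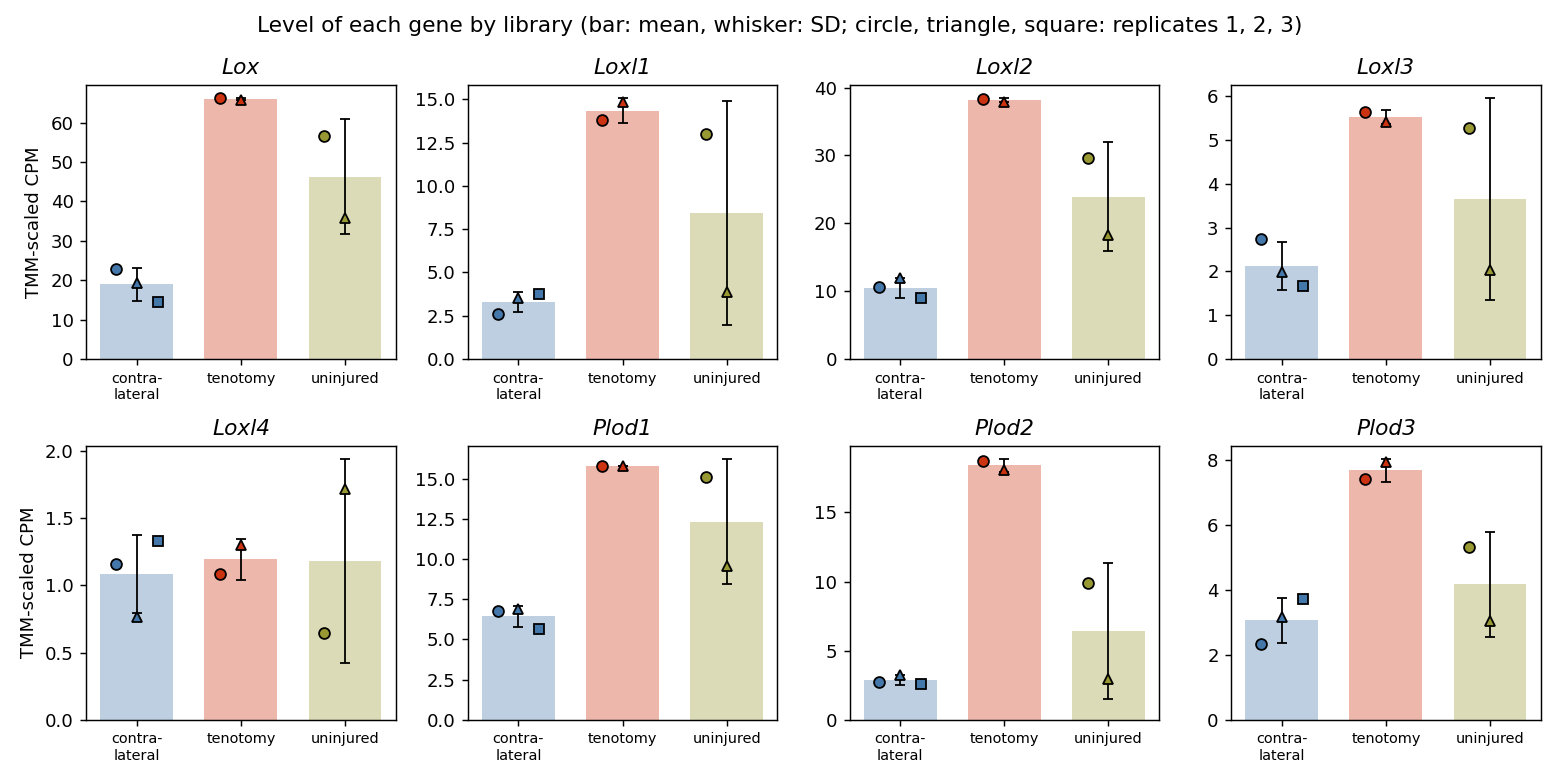
TMM-scaled CPM (vertical axes, starting at 0 and scaled per gene) of the 8 genes in the contralateral, tenotomy and uninjured groups; bars are means, whiskers SD and points single libraries. In 7 panels both tenotomy points lie above every contralateral point, as for Plod2 at 18.7 and 18.1 against 2.60 to 3.27, whereas in the Loxl4 panel the points of all groups mix.

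Among the hydroxylases, Plod2 encodes the telopeptide lysyl hydroxylase (ENSMUSG00000032374.14; chromosome 9, 92542223 to 92608428, plus strand). It was at 2.74, 3.27 and 2.60 CPM in contralateral libraries and at 18.7 and 18.1 in tenotomy libraries. The uninjured libraries were at 9.88 and 2.96, so replicate 1 fell between the tenotomy and contralateral levels and replicate 2 within the contralateral range. The log2 rise over contralateral tendon was 2.68 (SE 0.42, edgeR adjusted p = 0.0167), a 6.40-fold difference.

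Plod1 encodes the enzyme known for hydroxylating lysines in the helical part of collagen (ENSMUSG00000019055.15; chromosome 4, 147909753 to 147936767, minus strand). Its levels were 6.75, 6.89 and 5.66 CPM in contralateral, 15.8 and 15.8 in tenotomy, and 15.1 and 9.57 in uninjured libraries. All 3 groups were separate, and uninjured replicate 1 lay close to the tenotomy libraries. Plod1 rose by 1.30 (SE 0.21, edgeR adjusted p = 0.0167).

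Plod3 encodes an enzyme that both hydroxylates lysine and adds sugars to hydroxylysine (ENSMUSG00000004846.10; chromosome 5, 136987019 to 136996648, plus strand). It was at 2.32, 3.16 and 3.71 CPM in contralateral, 7.42 and 7.93 in tenotomy, and 5.32 and 3.03 in uninjured libraries. Both tenotomy libraries were the highest, and uninjured replicate 2 lay within the contralateral range. The rise was 1.32 (SE 0.26, edgeR adjusted p = 0.0167). Plod3 overlaps Znhit1 on the opposite strand, with the same limit as for Loxl3.

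In each of these 7 genes the tenotomy libraries lay above all contralateral libraries, as they did for 31.9% of all genes. The calls depended on which libraries estimated the spread. When any 1 of the contralateral or tenotomy libraries was left out of the fit of 7, 0 of the 8 genes and 0 genes in all passed in edgeR, although 7 of the 8 still had an unadjusted p-value under 0.05 each time, as did 27.2% to 38.3% of all genes. When only the tenotomy and contralateral libraries were fitted, 7 genes passed (22.1% of all genes were then called higher), and the same number passed when any library of that smaller fit was left out (14.7% to 23.3% of all genes). In that fit Plod2 changed by 2.67 (SE 0.11, edgeR adjusted p = 5.29e-09) and Lox by 1.80 (SE 0.15, edgeR adjusted p = 1.42e-06).

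**Figure D2:**
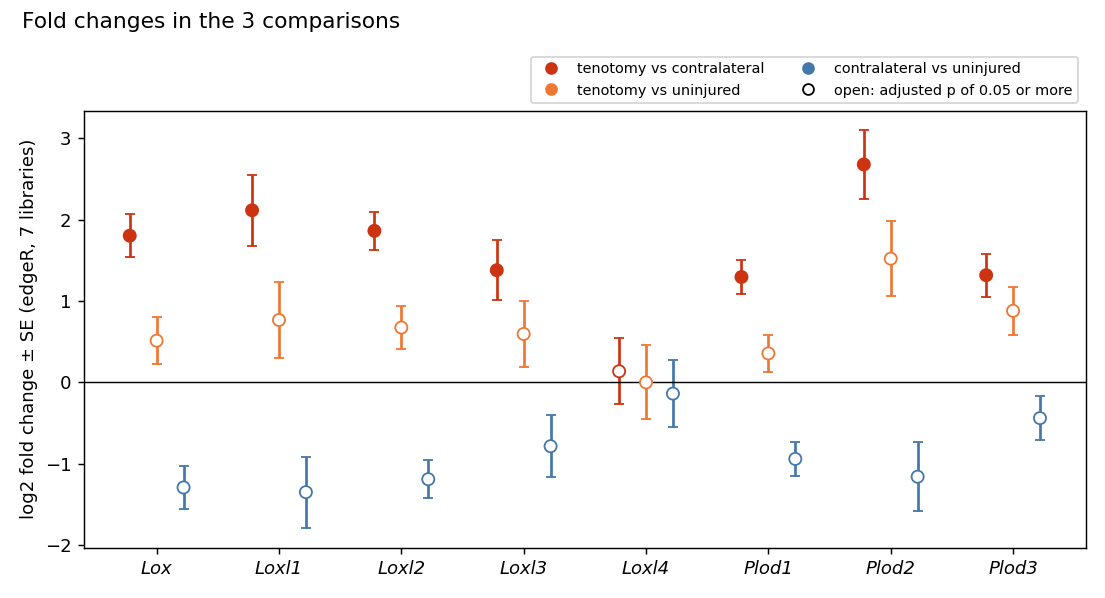
Log2 fold change with its SE from edgeR (vertical axis) for each gene in the 3 comparisons, with filled points where the adjusted p-value was under 0.05. For tenotomy against contralateral 7 points are filled, between 1.30 for Plod1 and 2.68 for Plod2, whereas in the comparisons with the uninjured group every point is open.

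The second comparison, tenotomy against uninjured, sets the injured site against tendon of mice without injury. None of the 8 genes passed in edgeR's test, where 0% of all genes were called, and adjusted p-values ran from 0.450 to 0.999. Loxl2, Plod2 and Plod3 were the 3 genes with an unadjusted p-value under 0.05, as were 10.9% of all genes. The log2 fold change of Plod2 was 1.52 (SE 0.46, edgeR adjusted p = 0.450), that of Plod3 0.88 (SE 0.29) and that of Loxl2 0.67 (SE 0.26). Lox differed by 0.51 (SE 0.29), Loxl1 by 0.77 (SE 0.47), Loxl3 by 0.60 (SE 0.40) and Plod1 by 0.36 (SE 0.23). In 7 of the 8 genes, all but Loxl4, both tenotomy libraries lay above both uninjured libraries, as they did for 20.1% of all genes.

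The result rested on uninjured replicate 1. Without that library, 7 of the 8 genes were called higher in tenotomy (11.4% of all genes), with Plod2 at 2.64 (edgeR adjusted p = 1.03e-06), Loxl1 at 1.90 and Lox at 0.88. The uninjured group was then replicate 2 alone, with the spread borrowed from the other groups. Without uninjured replicate 2, 0 of the 8 genes passed (0.0593% of all genes were called higher), with 3 genes at an unadjusted p-value under 0.05, as were 5.67% of all genes, and Plod2 differed by 0.90. DESeq2 on all libraries called 1 gene, Plod2 (adjusted p = 0.0450), against 0.0312% of all genes. It gave no adjusted p-value for Loxl3, Loxl4 and Plod3 in this comparison, so these could not be called. The DESeq2 shares here and in the next comparison are of all 16028 genes, with those lacking an adjusted p-value counted as not called.

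The last comparison, contralateral against uninjured, asks whether the uncut tendon of injured mice differed from that of mice with no injury. None of the 8 genes passed in edgeR's test, which called 0% of all genes. Lox, Loxl1, Loxl2, Plod1 and Plod2 were the 5 with an unadjusted p-value under 0.05, as were 19.2% of all genes. All 8 log2 fold changes were negative, with a median of -1.05 beside -0.012 over all genes. Lox differed by -1.29 (SE 0.26, edgeR adjusted p = 0.215), Loxl2 by -1.19 (SE 0.23) and Plod1 by -0.94 (SE 0.21), each with the same adjusted p-value. DESeq2 called these 3 genes lower in contralateral tendon (adjusted p = 0.00414 for Lox, 0.00536 for Loxl2 and 0.0362 for Plod1), against 0.886% of all genes. The same 3 were called lower by edgeR with no filter on low counts (0.835% of all genes). Every contralateral library lay below both uninjured libraries for Lox, Loxl1, Loxl2 and Plod1, which are 4 of the 8 genes beside 16.6% of all genes.

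Here the uninjured libraries pulled apart along the same line. Without uninjured replicate 2, 7 genes were called lower in contralateral tendon (15.0% of all genes), from -0.78 for Plod3 to -1.96 for Loxl1. Without uninjured replicate 1, Loxl2 was the 1 gene called (log2 fold change -0.80, edgeR adjusted p = 0.0429; 0.311% of all genes were called lower), and Loxl3 and Plod3 were at 0.052 and 0.030, with the sign turned. The tenotomy and contralateral comparisons with this group share its libraries.

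Relative levels within each family do not depend on how libraries are scaled. They were computed from TPM, an abundance that accounts for transcript length. Lox was the most abundant lysyl oxidase in every library, at 47.4% to 54.3% of the summed TPM of the 5 enzymes in contralateral, 53.7% and 53.5% in tenotomy, and 54.3% and 60.8% in uninjured libraries. These ranges overlap, so the rise of the family left the share of Lox within its spread. Loxl2 followed with 18.8% to 24.9%, 24.4% and 23.7%, and 22.1% and 23.7%. Loxl4 made up 2.68% to 4.86% of the family in contralateral libraries and 0.986% and 1.78% in tenotomy libraries, where the other members had risen. In TPM, the order in tenotomy tissue was Lox (2.32 ± 0.17, SD, n = 2), Loxl2 (1.04 ± 0.061), Loxl1 (0.636 ± 0.082), Loxl3 (0.273 ± 0.0078) and Loxl4 (0.0609 ± 0.029), each separate from the next. In contralateral tissue Lox (0.707 ± 0.24, SD, n = 3) and Loxl2 (0.294 ± 0.075) came first. Loxl1 (0.149 ± 0.022) and Loxl3 (0.144 ± 0.086) did not differ beyond their spread in TPM. Non-coding transcripts held 59%, 20% and 47% of the Loxl3 TPM there. With counts divided by the length of the longest coding transcript, Loxl1 made up 9.0%, 13.0% and 16.8% of the family in these libraries. By that measure Loxl3 made up 7.6%, 5.9% and 6.1%, less than Loxl1 in each.

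The makeup of the lysyl hydroxylases differed more. Plod2 made up 27.9%, 27.7% and 19.6% of the summed TPM of the 3 enzymes in the contralateral libraries and 42.7% and 39.8% in the tenotomy libraries. In the uninjured libraries its share was 35.1% in replicate 1 and 23.7% in replicate 2. Both tenotomy values were above all others. Plod1 made up 55.4%, 47.9% and 38.9% in contralateral, 37.7% and 38.7% in tenotomy, and 50.6% and 56.6% in uninjured libraries, so that the contralateral range overlapped the uninjured values and ended just above the tenotomy values. An exact permutation test of 2 against 3 libraries cannot pass 0.05, so these shares are given without a test. Short non-coding transcripts of Plod2, which carry retained introns, held 8.04% to 19.1% of its counts but 30.5% to 60.3% of its TPM. With counts divided by the length of the longest coding transcript, the share of Plod2 was 20.9%, 22.3% and 19.6% in contralateral and 41.6% and 40.2% in tenotomy libraries.

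**Figure D3:**
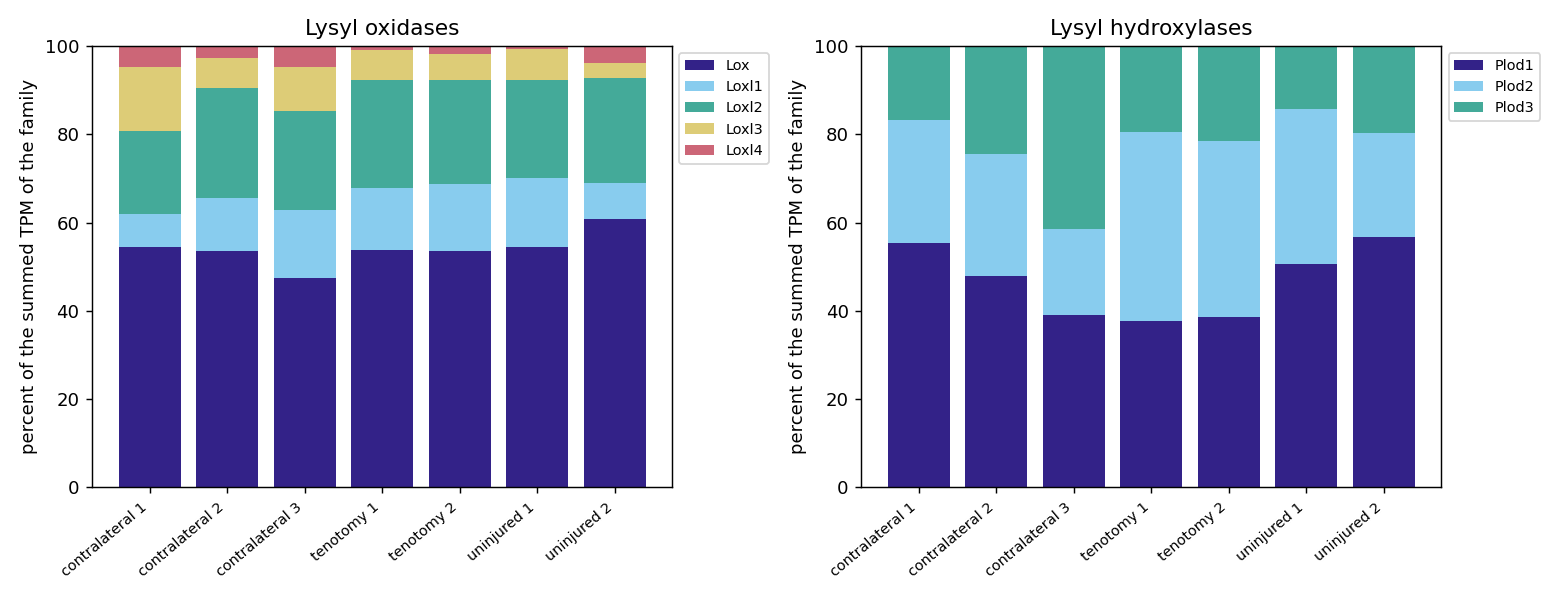
Share of each gene in the summed TPM of its family (vertical axis, percent) in each of the 7 libraries, lysyl oxidases at left and lysyl hydroxylases at right. Lox takes 47.4% to 60.8% throughout, while the Plod2 segment is tallest in the tenotomy libraries, at 42.7% and 39.8%.

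The splice forms of Plod2 introduced above were counted separately in the deposited tables. The long form, with the 63-base exon, had 59.0, 71.1 and 72.0 estimated counts in the contralateral libraries, 559.0 and 470.5 in the tenotomy libraries, and 239.3 and 71.7 in the uninjured libraries. The short form was listed at 0 in contralateral replicates 1 and 3 and in both uninjured libraries, and at 26.2 in contralateral replicate 2. At the tenotomy site it had 64.6 and 28.2 estimated counts. The long form made up 89.6% and 94.3% of the coding counts at the tenotomy site, and 73.1% in contralateral replicate 2. Most of the coding counts of Plod2 at the tenotomy site were thus of the form carrying the exon, as in the contralateral libraries. A retained-intron transcript also spans the exon, with 5.00 to 34.0 estimated counts, and the split between forms is the estimate of the quantification tool, whose error is not in the files.

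**Figure D4:**
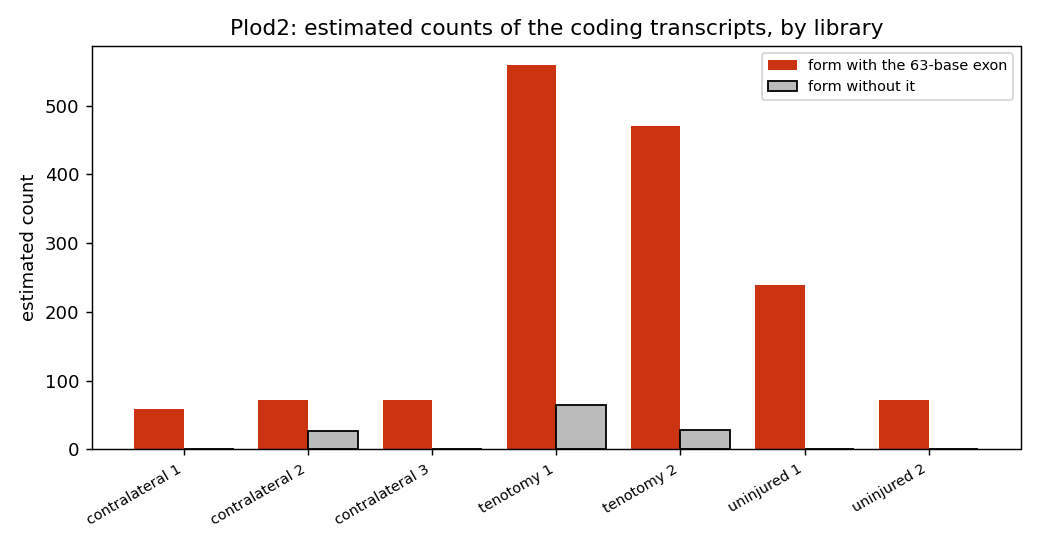
Estimated counts (vertical axis, not scaled for library size) of the Plod2 coding transcripts with and without the 63-base exon in each library. The form with the exon reaches 559.0 and 470.5 in the tenotomy libraries and stays at 59.0 to 72.0 in the contralateral libraries, and the form without it is listed at 0 in 4 libraries.

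Lox has 2 coding transcripts that differ at the 5′ end. The one named Lox-202 held 51.9%, 56.3% and 61.5% of the TPM of Lox in contralateral libraries, 62.9% and 62.3% in tenotomy libraries, and 64.4% and 61.0% in uninjured libraries. The tenotomy values were above the contralateral ones by less than the range among contralateral libraries.

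The substrates rose as well. Fibrillar collagens are the main proteins these enzymes act on, and of 9 such genes 9 were higher at the tenotomy site (13.6% of all genes), with a median log2 fold change of 2.94. Col1a1, the chief tendon collagen chain, rose by 2.55 (SE 0.25, edgeR adjusted p = 0.0152), Col3a1, abundant in repair tissue, by 3.39 (SE 0.56, edgeR adjusted p = 0.0167), and Col2a1, the cartilage collagen, by 7.98 (SE 0.94, edgeR adjusted p = 0.0167), the most of the list. To set enzymes against substrates within a library, the TPM of each enzyme was divided by that of Col1a1, Col1a2 and Col3a1 together. These ratios were chosen after the levels were seen and are descriptions. Per 1000 such collagen TPM there were 27.3, 24.1 and 20.7 of Lox in the contralateral libraries, 13.7 and 13.7 in the tenotomy libraries, and 12.8 and 12.0 in the uninjured libraries. Relative to collagen, Lox was thus lower at the tenotomy site and in uninjured tendon than in every contralateral library.

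Plod1 had 14.6, 14.1 and 12.0 per 1000 in contralateral, 5.51 and 5.51 in tenotomy, and 5.71 and 4.83 in uninjured libraries. Loxl2 had 9.44, 11.2 and 9.80 in contralateral, 6.22 and 6.07 in tenotomy, and 5.20 and 4.69 in uninjured libraries. In both, as in Loxl3, Loxl4 and Plod3, the tenotomy libraries lay below all contralateral libraries, whereas for Loxl1 and Plod2 the groups overlapped. Plod2 had 7.37, 8.14 and 6.03 per 1000 in the contralateral libraries, 6.25 and 5.68 in the tenotomy libraries, and 3.96 and 2.02 in the uninjured libraries. The direction for Plod2 turned with the transcripts summed: with coding transcripts only it had 3.14, 4.02 and 3.89 in contralateral and 4.19 and 4.10 in tenotomy libraries, so no direction is read from its ratio. With coding transcripts only, Loxl1 had 4.11, 5.65 and 7.22 in contralateral and 3.77 and 4.05 in tenotomy libraries, and these no longer overlapped. That second version was also chosen after the data were seen.

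**Figure D5:**
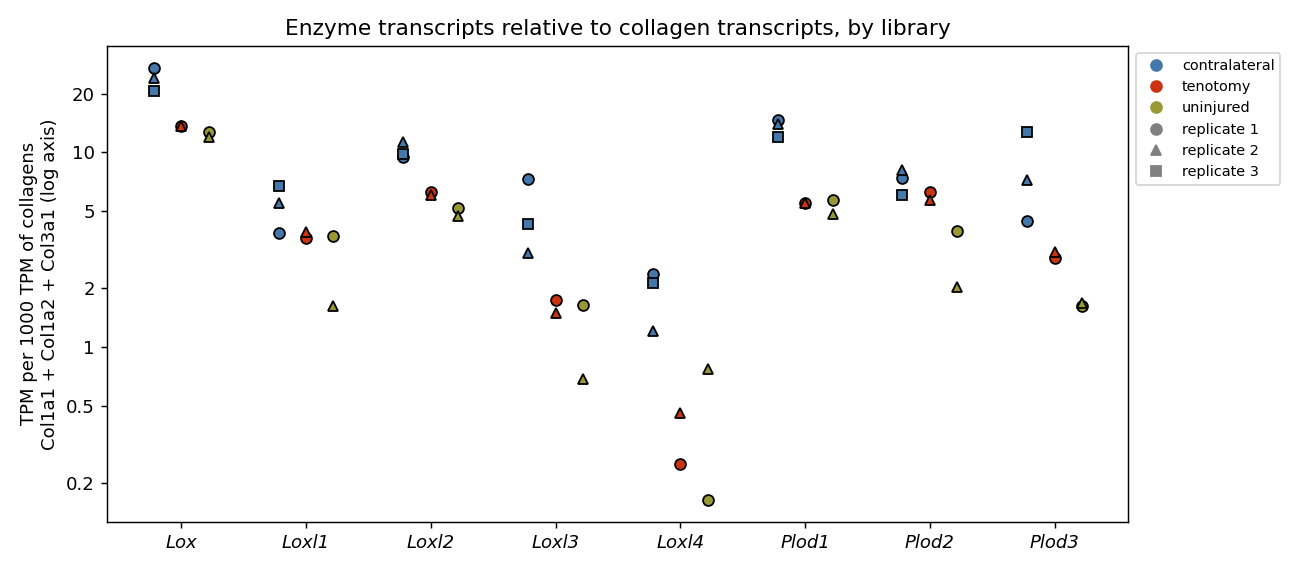
TPM of each enzyme, summed over all its transcripts, per 1000 TPM of Col1a1, Col1a2 and Col3a1 (vertical log axis), by group and replicate. Lox, Loxl2 and Plod1 are highest in the contralateral libraries, with Lox at 20.7 to 27.3 there and 13.7 in both tenotomy libraries, whereas the Plod2 and Loxl1 points of these groups overlap.

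Genes that work with the crosslinking enzymes were counted from lists drawn up from pathway knowledge, with earlier results of these data known. Among 13 genes that activate or partner the lysyl oxidases, 12 were tested, of which 10 rose and 0 fell in tenotomy against contralateral tendon (median 1.68), beside 13.6% and 15.4% of all genes. Bmp1, the protease that cleaves the Lox propeptide, rose by 1.87 (SE 0.33, edgeR adjusted p = 0.0167). Postn, encoding periostin, which brings Bmp1 to the matrix, had the largest rise of this list at 5.36. Pcolce2 (log2 fold change -0.84, edgeR adjusted p = 0.139) and fibromodulin, Fmod (0.086, edgeR adjusted p = 0.855), did not pass.

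Of 7 partners of the lysyl hydroxylases, 6 rose and 0 fell (median 1.96), against the same shares of all genes. Fkbp10, a chaperone known to act with Plod2 on telopeptide lysines, had the largest rise, at 2.25 (SE 0.38, edgeR adjusted p = 0.0167). P3h3 and P3h4, which form a complex with Plod1, rose by 1.98 each. Colgalt2, a collagen sugar transferase, was the member that did not pass (-0.29, edgeR adjusted p = 0.558).

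Prolyl hydroxylation is the parallel modification of proline that stabilises the triple helix. Of its 7 genes 4 rose and 0 fell, again beside 13.6% and 15.4% of all genes, 6 had an unadjusted p-value under 0.05 (43.3% of all genes), and the median was 1.24. P4ha3 rose most, by 3.38, from 0.186 to 0.455 CPM in contralateral to 3.32 and 3.37 in tenotomy libraries. P4ha1, encoding the main catalytic subunit, did not pass (-0.014, SE 0.19, edgeR adjusted p = 0.967). Of 3 genes of copper supply, 1 rose, the importer Slc31a1 (0.49, SE 0.14, edgeR adjusted p = 0.0410). All 3 had log2 fold changes of 0.49 to 0.63 and unadjusted edgeR p-values under 0.05 (43.3% of all genes). The list calls of this comparison depended on the uninjured libraries in the fit. With either left out, further genes of prolyl hydroxylation and copper supply were called higher. Falls were then also called in Lox activation and prolyl hydroxylation. In the comparisons with the uninjured group, 0 genes of these lists passed in edgeR's test.

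Unadjusted p-values were under 0.05 for 9 of 9 collagens in contralateral against uninjured tendon (19.2% of all genes) and for 2 of 9 in tenotomy against uninjured (10.9% of all genes). Without uninjured replicate 1, 8 of 9 collagens were called lower in contralateral than in uninjured tendon (0.311% of all genes), as was 1 of 12 tested genes of Lox activation and 0 of the other lists. Without uninjured replicate 2, 9 of 9 collagens, 10 of 12 genes of Lox activation, 6 of 7 hydroxylase partners, 4 of 7 prolyl hydroxylation genes and 3 of 3 copper genes were called lower (15.0% of all genes). For tenotomy against uninjured, leaving out uninjured replicate 1 gave 7 of 9 collagens, 10 of 12 genes of Lox activation, 6 of 7 hydroxylase partners, 5 of 7 prolyl hydroxylation genes and 0 of 3 copper genes called higher (11.4% of all genes). In each of these last 2 fits, 1 gene of Lox activation and 1 of prolyl hydroxylation were called in the opposite direction. Leaving out uninjured replicate 2 gave 1 of 9 collagens and 0 of the other lists (0.0593% of all genes).

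Other cell types moved along with these genes. In tenotomy against contralateral tendon, 12 of 12 muscle markers fell (median -3.42; 15.4% of all genes were called lower), and 8 of 9 macrophage and leukocyte markers and 5 of 6 cartilage markers rose (13.6% of all genes). The summed CPM of the macrophage and leukocyte list was 34.1 to 42.1 in contralateral, 152.4 and 155.6 in tenotomy, and 154.3 and 41.1 in uninjured replicates 1 and 2. The cartilage list summed to 22.6 to 43.6, 278.3 and 283.1, and 113.3 and 30.4. No marker of these lists was at 0 in all libraries. The part of muscle, leukocyte and cartilage content in the rise of the crosslinking genes was not tested. Uninjured replicate 2 had a muscle sum of 7680, near the contralateral 8062 to 10390. There, Lox (35.9 CPM), Loxl1 (3.85), Loxl2 (18.2), Loxl4 (1.72) and Plod1 (9.57) were above every contralateral library. Plod2 (2.96 CPM), Plod3 (3.03) and Loxl3 (2.03) were not. These values are of that library alone, whose label is in doubt, and a link to muscle content was not tested. The muscle and erythroid marker genes were also removed before scaling. Then 7 of the 8 genes were called higher in tenotomy than in contralateral tendon, again with 13.6% of all genes called higher. That removal leaves the counts of the 8 genes and the muscle RNA in each piece as they were. It is therefore no test of muscle content.

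The numbers in the sample titles fall in 3 series, which no label calls a batch. The first holds the contralateral libraries and tenotomy replicate 1, which was above the contralateral mean log2 CPM by 1.83 for Lox, 1.88 for Loxl2, 2.69 for Plod2 and 0.035 for Loxl4. The next holds tenotomy replicate 2 and uninjured replicate 1. Between them Plod2 differed by 0.87, Plod3 by 0.57, Lox by 0.22 and Loxl3 by 0.031, with 1 library on each side and no test. The last holds uninjured replicate 2 alone, so the uninjured libraries also differ in series. Uninjured replicate 1 minus replicate 2 was 1.74 for Loxl1, 1.72 for Plod2, 0.65 for Lox and -1.33 for Loxl4. A difference between series and a difference between these libraries cannot be told apart.

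The genes whose log2 CPM was most like that of each enzyme were sought over the 7 libraries, among 2001 other genes with a mean log2 CPM of at least 3. For Lox they were Gja1 and Il11ra1, for Loxl1 Ftl1 and Sdcbp, for Loxl2 Gja1 and Lama4, and for Loxl3 Pign and Thbs4. For Plod1 they were Abca1 and Grn, for Plod2 Fosl2 and Copa, and for Plod3 Rpn2 and Copg1. The likeness (Pearson's r) was 0.987 to 0.999 for these 7 enzymes. The 7 libraries are not independent points, since they share groups, and r is a description. For Loxl4, with counts of 18 to 50, they were Prrc2a and Golga2 at 0.922 and 0.915.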

How the data were processed

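Per the labels' protocols, Trizol and columns were used to extract RNA, and sequencing libraries came from a TruSeq kit. Per the submitters' processing notes, FastQC 0.11.4 and kallisto were used. The notes name GRCh38, a human build, whereas the transcript IDs in the files are mouse Ensembl IDs. The index release and strand setting are not given in the sources used here. Per the file headers, the authors deposited estimated counts and TPM for 103639 transcripts per library, with length and effective length. The TPM were scaled by the authors to a common total.

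IDs were matched without version to GENCODE M21 (GRCm38): 101510 matched, and 2129 were kept as single features. Estimated counts were summed per gene and rounded. Features were filtered with filterByExpr (minimum count 10) and scaled by TMM. The main test was edgeR 4.0.16's quasi-likelihood test (R 4.3.3) in 1 fit of the 3 group means over 7 libraries, with Benjamini-Hochberg adjustment over 16028 features and a threshold of 0.05. SE is the log2 fold change divided by the square root of F. Log2 CPM used a prior count of 2. DESeq2 1.42.0 and limma-voom 3.58.1 were alternatives. On simulated counts for tenotomy against contralateral, with 200 genes changed by 2 on the log2 scale, edgeR called 176 of them and 12 others among 15449 genes tested. These counts were drawn independently per gene and library, without the split between the uninjured libraries. They therefore give no power or error rate for the real libraries.

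Groups came from the condition label and replicates were numbered in accession order. The 8 genes and the lists were chosen with earlier results of these data known. By rule, the text names all 8 genes and, of each pathway list, the largest called rise and fall plus Bmp1, Fkbp10, P4ha1, Col1a1 and Col3a1. P3h3, P3h4, Pcolce2, Fmod, Colgalt2 and the tendon markers were named after their values were seen. Marker lists for endothelial, adipose, erythroid, Schwann and proliferating cells were also counted: in tenotomy against contralateral tendon, 0, 0, 2, 2 and 5 of their genes rose and 1, 4, 0, 0 and 0 fell. The pathway lists were recounted without each uninjured library, a choice made after seeing the data. Promoter sequences are from RefSeq, GRCm38.p6.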

Additional observations from a re-analysis of the deposited data

How the results depend on the processing

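For tenotomy against contralateral, 7 genes were called under upper quartile and RLE scaling, DESeq2, limma-voom and no filter on low counts. The same number was called after removal of the 5 most abundant features or of muscle and erythroid genes, and 6 with length-scaled TPM. Over these settings 8.12% to 16.4% of all genes were called higher. Adjusting for the numbering of the sample titles left tenotomy replicate 1 alone against the contralateral libraries. The added terms fitted tenotomy replicate 2 and both uninjured libraries exactly, so no call is read from that fit. Its log2 fold changes were 2.70 for Plod2, 1.81 for Lox and 0.012 for Loxl4. Leaving out 1 library gave 0 to 7 genes in each comparison. In the 7-library fit, the 0 came with each contralateral or tenotomy library left out. For tenotomy against uninjured, DESeq2 called 1 gene, and for contralateral against uninjured DESeq2 called 3 and edgeR without a filter 3; the cause was not tested. Signs turned for Loxl4: for tenotomy against uninjured it was at -0.0042 without a filter, -0.0015 in the fit of these groups alone, and -0.53 to 0.87 with a library left out. For contralateral against uninjured it was at 0.0043 with length-scaled TPM and -0.67 to 0.73 with a library left out. For tenotomy against contralateral it ran from -0.073 to 0.32 with a library left out, and was at -0.074 without contralateral replicate 2 in the fit of these groups alone, an alternative chosen after seeing the data. For contralateral against uninjured, Plod3 was at 0.029 with length-scaled TPM and -0.78 to 0.030 with a library left out, and Loxl3 at -1.32 to 0.052. With counts per length of the longest coding transcript, mean shares in tenotomy tissue were 52.9% for Lox, 15.7% for Loxl1, 25.5% for Loxl2, 4.85% for Loxl3 and 39.9% for Plod1, and 24.2% for Loxl2 in uninjured tissue. Per collagen TPM, the log2 ratio of tenotomy to contralateral means went from -0.27 to 0.17 for Plod2 and from -1.30 to -1.10 for Plod1 when coding transcripts alone were summed, an alternative added after seeing the data. No paired analysis was possible because no label says whether a tenotomy and a contralateral library came from the same mouse. Loxl4 had the fewest counts of the 8 genes, 18 to 50 per library.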
